A study of Homo sapiens with 8 samples.

Results

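THP-1 cells kept with vehicle for 72 h were compared with THP-1 cells kept with vehicle for 24 h, which asks how far gene expression in the line differed between these times of culture without an inhibitor. The comparison holds 2 of the 8 libraries of the series, 1 at each time, chosen by the line, agent and time in the labels. The series covers a pair of human acute myeloid leukemia lines: THP-1, a monocytic line, labelled resistant to inhibition of the histone demethylase LSD1 (gene KDM1A), and KASUMI-1, a line with a RUNX1::RUNX1T1 fusion, labelled sensitive. Cells of each line received vehicle or the LSD1 inhibitor DDP38003 at 0.5 µM (LSD1i), THP-1 for 24 or 72 h and KASUMI-1 for 6 or 72 h. The THP-1 LSD1i libraries at 24 and 72 h give the same interval in libraries that the vehicle comparison does not use. The labels name neither the vehicle solvent nor the cell density, medium changes or passage, and they do not say that the libraries came from separate cultures. Hours in culture, density, age of the medium and differences between library preparations cannot be told apart in this comparison, and each p-value given here reflects only how far these particular samples scatter, a scatter that can be purely technical.

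Genes of lipid synthesis were among those that stood furthest apart between the times, so their control is described first as background. Cells make cholesterol from acetyl-CoA through the mevalonate pathway and also take it up from lipoproteins. The transcription factors encoded by SREBF1 and SREBF2 are held in the membrane of the endoplasmic reticulum by SCAP and the INSIG proteins while sterol is plentiful. When membrane sterol falls they are released, cut and enter the nucleus, where they bind sterol regulatory elements in the genes of synthesis and uptake. Liver X receptors respond to oxidised sterols and drive export, with ABCA1 as the main pump, and also raise MYLIP, a ubiquitin ligase.

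Counted reads were 43392502 at 24 h and 38199393 at 72 h for vehicle, and 42623571 and 35131884 for LSD1i. Levels are read counts scaled to library size by TMM, in CPM. Of 16 markers of THP-1, 14 stood above 1 RPKM (CPM divided by the exon length in kilobases) in both vehicle libraries, among them AZU1, ELANE, CEBPA, SPI1 and HOXA9. CD14 (0.451 and 0.332 RPKM at 24 and 72 h) and MEIS1 (3 reads and 1 read) fell short of that level. RUNX1T1, part of the KASUMI-1 fusion, had 8 and 5 reads. Of 5 markers of KASUMI-1, however, 2 stood above 1 RPKM in both vehicle libraries. These were PRAME (2485 and 2383 reads at 24 and 72 h) and KIT (384 and 619 reads). The summed level of the KASUMI-1 markers was 64.8 and 75.6 CPM at 24 and 72 h. Among markers of other cells HBB, HBA1, ALAS2, CD3E, CD2, PF4, PPBP and COL1A2 had no read in either vehicle library. The summed level of the B cell markers was 4.08 and 5.55 CPM at 24 and 72 h, and that of the T cell, erythroid, megakaryocyte and epithelial or stromal markers was at most 1.13 CPM.

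Expression at 72 h was close to that at 24 h for most genes, and 92 genes stood at least 2-fold apart. A gene was counted when its ratio was at least 2-fold, its mean was at least 2 CPM and the 95% interval of the ratio excluded equality. This interval comes from counting error alone, with reads that carry no molecular identifiers, so it leaves out variation between cultures. Of 11289 genes measured at that level, 59 were higher at 72 h (0.523%) and 33 were lower (0.292%), or 0.815% in all. The median log2 ratio was 0.01 and the quartiles were -0.15 and 0.19, and 94.98% of genes lay within 1.5-fold of equality. Across these genes the log2 CPM values of the libraries had a Pearson r of 0.989, given as a description, since genes are not independent replicates. Genes with long exons tended to be higher at 72 h: the median log2 ratio was -0.07, 0.00, 0.04 and 0.08 in 4 equal classes of exon length, from the shortest to the longest, in the vehicle pair, and -0.02, -0.04, -0.04 and -0.01 in the LSD1i pair.

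**Figure D1:**
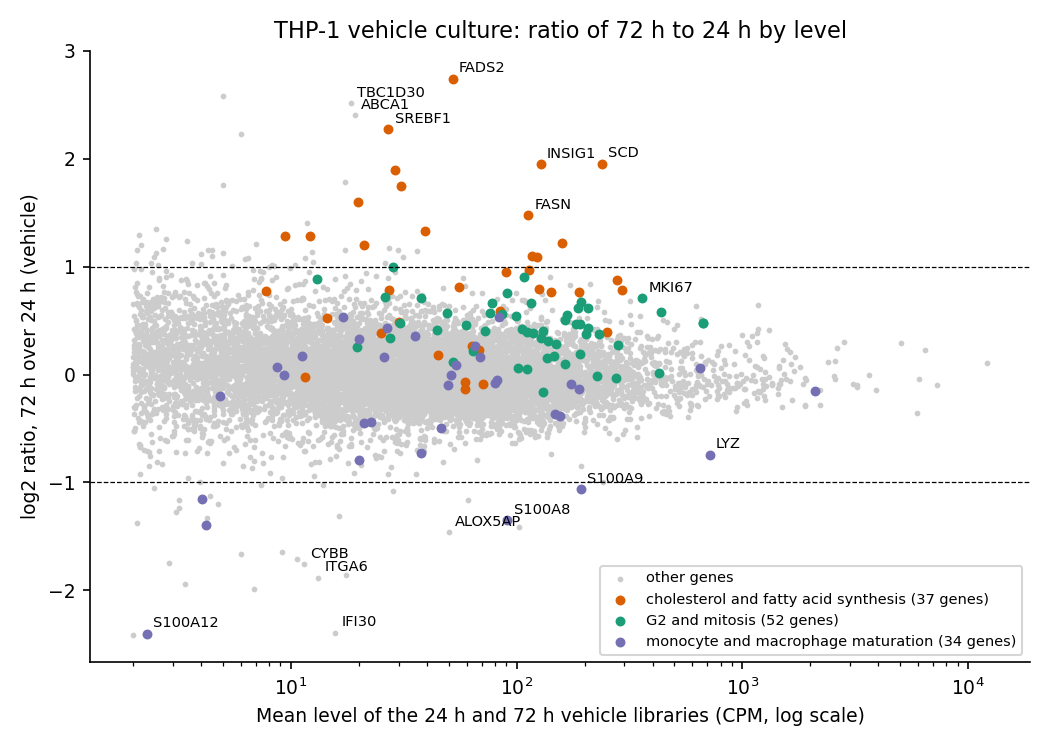
Each point is a gene with a mean of at least 2 CPM. The horizontal axis is the mean of the vehicle libraries at 24 and 72 h in CPM on a log scale, the vertical axis the log2 ratio of 72 h to 24 h, and the dashed lines mark 2-fold. Genes of cholesterol and fatty acid synthesis (orange) fill much of the space above the upper line, the G2 and mitosis genes (green) lie mostly between 0 and 1, and the genes below the lower line include IFI30, S100A12, S100A8 and S100A9.

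With 1 library at each time the vehicle pair gives no measure of its own spread. A test of time was made over both agents: the edgeR quasi-likelihood fit over all 8 libraries, with terms for line, agent and time within line, takes the average of the THP-1 vehicle and LSD1i changes from 24 to 72 h. Genes that passed it at an adjusted p of 0.05 are said to have risen or fallen. Of 16060 genes, 193 rose (1.2%) and 120 fell (0.747%), or 1.95% in all, and 2307 had an unadjusted p under that threshold. Of the vehicle genes at least 2-fold apart, 43 of the 59 higher genes rose and 23 of the 33 lower genes fell. These genes were picked by the vehicle ratio, and the fit uses the same vehicle libraries again. A high share is thus partly built in and is no independent test of them. The same holds for the adjusted p-values of genes named for a high or low vehicle ratio. Leaving out a THP-1 library lowered the count: 69 genes passed without the vehicle library of 24 h, 53 without that of 72 h, 40 without the LSD1i library of 24 h and 37 without that of 72 h. Without any one KASUMI-1 library, which leaves the spread to THP-1, between 1060 and 1066 passed. Of 90 calls among the named genes, 18 to 24 remained without any one THP-1 library, 90 without any one KASUMI-1 library, and 51 in the vehicle pair alone with its spread taken from KASUMI-1.

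Cholesterol and fatty acid synthesis stood out at 72 h. Of 39 listed genes 37 were measured at 2 CPM or more, and 15 of these were at least 2-fold higher at 72 h (against 0.523% of all measured genes) and 0 lower. They make up 25.4% of the 59 genes higher at 72 h. The median log2 ratio of the list was 0.81, against 0.01 over all genes measured, and 33 of 37 members had a ratio above 0. In the LSD1i pair the median was 0.66 and 34 of 37 were above 0. Among all 11289 measured genes 5845 had a ratio above 0 in vehicle and 5124 with LSD1i. In the edgeR time fit 24 of the 37 rose and 0 fell, against 175 and 102 of all 11289 genes. Without the vehicle library of 24 h the count was 9, without the vehicle library of 72 h 7, and without the LSD1i library of either time 11. Of the 37, 19 lie in the 2 classes of longer exons, and the part of length in the list's median was not tested.

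The regulators of the pathway differed among themselves. SREBF1, which encodes the factor tied mainly to fatty acid synthesis, stood at 9.23 CPM in vehicle at 24 h and 44.9 CPM at 72 h, and at 10.2 and 35.4 CPM with LSD1i. Both 72 h libraries lie above both 24 h libraries. The vehicle ratio was 4.84-fold (95% counting interval 4.38 to 5.41), and the gene rose by 2.04 ± 0.16 (SE) on the log2 scale with an adjusted p of 1.05e-06. SREBF2, its counterpart for cholesterol synthesis, stood at 74.0 and 159 CPM in vehicle and at 78.0 and 117 CPM with LSD1i, and rose by 0.85 ± 0.16 (adjusted p = 0.00933). INSIG1, the sterol-responsive anchor of these factors and itself their target, went from 52.5 to 203 CPM in vehicle and from 55.5 to 205 CPM with LSD1i, a vehicle ratio of 3.87-fold (3.70 to 4.05), and rose by 1.92 ± 0.15 (adjusted p = 1.05e-06). INSIG2, the related anchor, had nearly the same level in all 4 libraries, between 10.9 and 11.7 CPM. SCAP, the escort of the factors, stood at 42.2 and 47.8 CPM in vehicle and 42.3 and 35.5 CPM with LSD1i (adjusted p = 0.956). So within the control machinery the higher values at 72 h were those of the factors and of INSIG1.

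The enzymes from acetyl-CoA to cholesterol were mostly higher, by differing amounts. HMGCS1, which makes the precursor of mevalonate, stood at 78.5 and 168 CPM in vehicle at 24 and 72 h and at 82.7 and 153 CPM with LSD1i, and rose by 0.99 ± 0.18 (adjusted p = 0.00544). LSS, which closes the sterol rings, had the highest vehicle ratio among the enzymes of this branch, 14.1 against 47.3 CPM or 3.36-fold (3.08 to 3.68), with 14.9 and 37.0 CPM in LSD1i. DHCR7, which carries out the last reduction to cholesterol, stood at 9.83 and 29.8 CPM in vehicle and at 10.7 and 25.3 CPM with LSD1i. LSS rose by 1.53 ± 0.18 (adjusted p = 0.000111) and DHCR7 by 1.43 ± 0.19 (adjusted p = 0.000315). MVD, a decarboxylase of the mevalonate arm, had a vehicle ratio of 2.30-fold (2.09 to 2.55) from 12.7 to 29.3 CPM but stood at 14.99 and 20.4 CPM with LSD1i, and did not pass the time fit (adjusted p = 0.057). PMVK, TMEM97 and GGPS1 had vehicle ratios between -0.14 and -0.07 on the log2 scale, so the higher level did not extend to each member.

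Fatty acid synthesis and desaturation held the widest ratio of all measured genes. FADS2, the delta-6 desaturase, had 635 reads at 24 h and 3759 at 72 h in vehicle, or 13.5 and 90.8 CPM, and 22.9 and 82.4 CPM with LSD1i. The vehicle ratio was 6.70-fold (6.18 to 7.32), and the gene rose by 2.29 ± 0.23 (adjusted p = 1.62e-05). Its divergent neighbour FADS1, the delta-5 desaturase, stood at 94.9 and 222 CPM in vehicle and 123 and 275 CPM with LSD1i and rose by 1.20 ± 0.13 (adjusted p = 3.48e-05). The third gene of this cluster, FADS3, was at 4.77 and 5.84 CPM in vehicle and 5.48 and 5.16 CPM with LSD1i and did not pass (adjusted p = 0.858); it is named for its position, after its values were seen. On NCBI build 36 the genes lie on chromosome 11, FADS1 at 61323679 to 61340886 and FADS2 at 61340325 to 61391401, and their gene models overlap at the starts, where reads cannot be assigned. SCD, which makes oleate, stood at 98.1 and 380.3 CPM in vehicle and 113 and 354 CPM with LSD1i, and rose by 1.80 ± 0.16 (adjusted p = 6.32e-06). Per exon length SCD went from 17.9 to 69.6 RPKM in vehicle and FADS2 from 4.10 to 27.5 RPKM, so SCD remained the higher of these desaturases. FASN, the fatty acid synthase, differed between the agents in size: 59.5 and 165 CPM in vehicle, a ratio of 2.78-fold (2.66 to 2.91), and 59.8 and 85.3 CPM with LSD1i. FASN rose by 0.9995 ± 0.19 (adjusted p = 0.0094), and the difference between the agents did not pass its own test (adjusted p = 0.44). ACLY, which supplies the acetyl-CoA, stood at 217 and 284 CPM in vehicle and 247 and 223 CPM with LSD1i, with no call (adjusted p = 0.778).

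The main gene of cholesterol export was higher at 72 h. ABCA1, which exports cholesterol to lipoproteins, stood at 6.04 and 32.3 CPM in vehicle and 6.34 and 41.0 CPM with LSD1i, and rose by 2.56 ± 0.17 (adjusted p = 3.28e-07). Its vehicle ratio was 5.31-fold (4.69 to 6.09). MYLIP went from 13.1 to 23.5 CPM in vehicle and from 13.5 to 28.3 CPM with LSD1i and rose by 0.96 ± 0.15 (adjusted p = 0.00204). These were the members of the liver X receptor and lipid export list that rose, 2 of 17, while PPARG (a nuclear receptor of lipid storage) and APOC1 (a small lipoprotein component) fell, by 0.79 and 0.80 on the log2 scale. The list's median log2 ratio was 0.26 in vehicle and -0.02 with LSD1i. Over all 11289 measured genes these medians were 0.01 and -0.03, and 175 rose and 102 fell. NR1H3, the gene of liver X receptor alpha, stood at 13.5 and 19.5 CPM in vehicle and 11.1 and 15.7 CPM with LSD1i (adjusted p = 0.106). SREBF1 is also a textbook target of liver X receptors, so it belongs to both groups of genes.

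**Figure D2:**
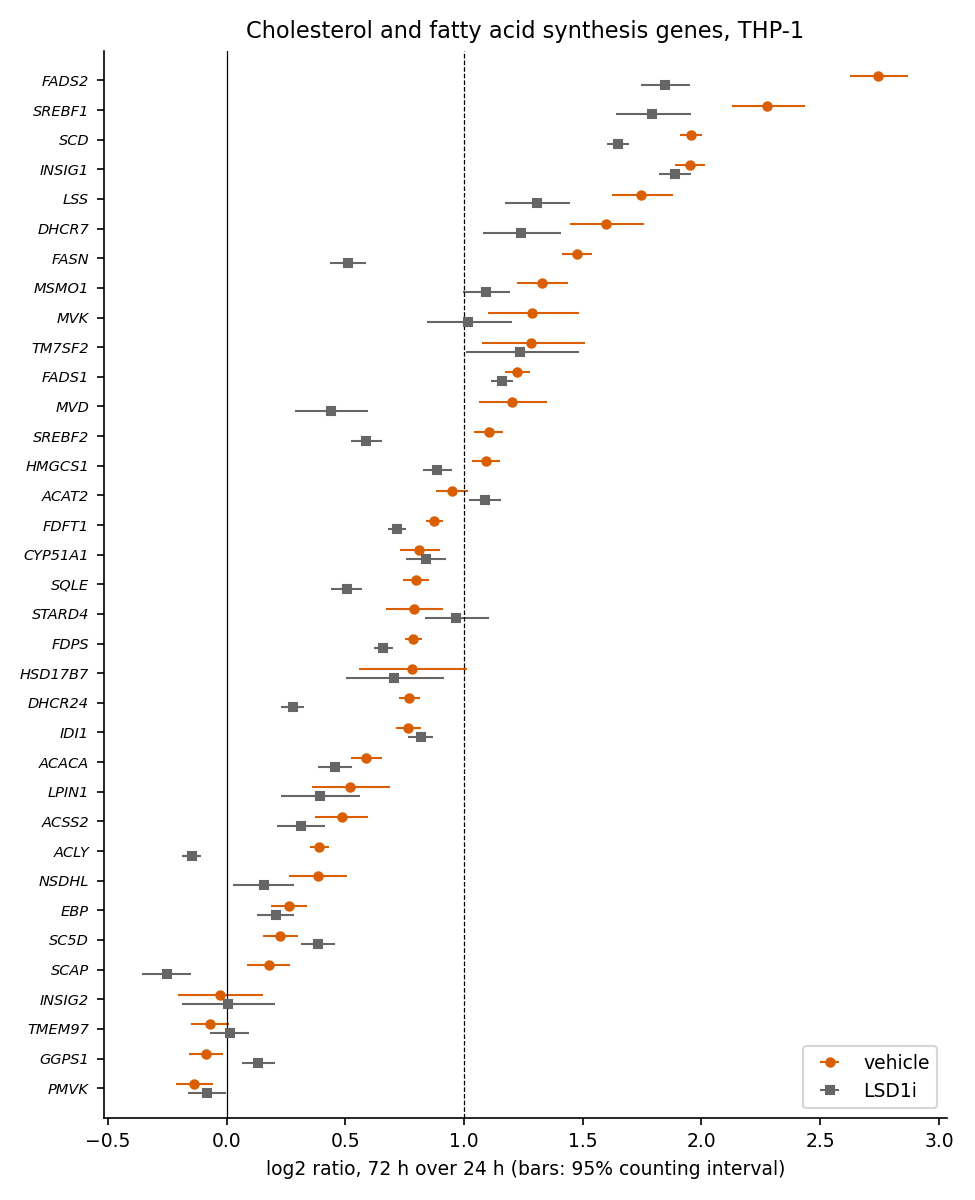
Rows are measured genes of the cholesterol and fatty acid synthesis list, without the members not reported here, with the log2 ratio of 72 h to 24 h in vehicle (orange circles) and LSD1i (grey squares) and bars for the 95% counting interval. The dashed line marks 2-fold. Vehicle ratios run from 2.74 for FADS2 to -0.14 for PMVK, and FASN shows the distance between the agents.

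The promoters of some of these genes are shown because their products sit in the sterol-controlled pathway. The motifs and the windows printed were chosen after the values were seen. RefSeq windows on GRCh38.p14, covering 250 bases before to 50 bases after the start of transcription, were found for 30 of the 37 measured list genes. They were searched on both strands for the core of the sterol regulatory element, TCACNCCA, and for the CCAAT box, CCAAT. The motifs can share the letters CCA, and no match of one overlaps a match of the other in the bases printed. The core occurs in 1387 of 35116 windows (3.95%) and in 4.81% of 27305 genes. It occurs in 3 of the 30 list genes, SREBF2, MVK and MSMO1. The CCAAT box occurs in 34.6% of windows, in 39.7% of genes and in 23 of the 30 list genes (76.7%). The 250 bases before the start are shown for the list genes with the core and for SCD, which has CCAAT boxes but no core in its window; they read 5′ to 3′ along the gene's strand as follows, with both motifs in capitals (runs of 8 letters are the core, runs of 5 are CCAAT or its reverse complement).
SREBF2, chr22:41832855-41833104, plus strand: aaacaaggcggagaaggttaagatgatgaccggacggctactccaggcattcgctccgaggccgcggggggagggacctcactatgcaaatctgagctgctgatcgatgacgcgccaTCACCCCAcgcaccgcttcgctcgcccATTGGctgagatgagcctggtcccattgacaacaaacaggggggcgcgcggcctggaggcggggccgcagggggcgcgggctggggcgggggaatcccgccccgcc
MVK, chr12:109573544-109573793, plus strand: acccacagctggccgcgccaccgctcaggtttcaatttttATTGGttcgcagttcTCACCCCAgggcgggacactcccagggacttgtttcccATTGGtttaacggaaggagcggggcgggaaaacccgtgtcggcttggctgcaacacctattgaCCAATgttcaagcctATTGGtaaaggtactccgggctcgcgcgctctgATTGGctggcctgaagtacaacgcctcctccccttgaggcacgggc
MSMO1, chr4:165327419-165327668, plus strand: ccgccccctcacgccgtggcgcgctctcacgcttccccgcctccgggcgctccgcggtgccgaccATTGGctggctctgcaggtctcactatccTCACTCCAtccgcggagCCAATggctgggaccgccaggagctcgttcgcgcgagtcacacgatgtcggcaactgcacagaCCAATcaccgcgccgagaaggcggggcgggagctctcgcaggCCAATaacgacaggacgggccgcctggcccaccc
SCD, chr10:100346983-100347232, plus strand: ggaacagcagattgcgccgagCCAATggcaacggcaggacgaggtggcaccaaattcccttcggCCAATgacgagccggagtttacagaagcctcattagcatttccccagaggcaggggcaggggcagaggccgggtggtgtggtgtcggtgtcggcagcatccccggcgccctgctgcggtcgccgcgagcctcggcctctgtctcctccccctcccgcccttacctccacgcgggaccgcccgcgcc
Counted from the start of transcription, the core begins at -133 in SREBF2, at -195 in MVK and at -156 in MSMO1. SREBF2 has 1 CCAAT box in the bases shown, MVK 5, MSMO1 4 and SCD 2. These matches describe the letters of a window and were not measured for binding.

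Genes of G2 and mitosis were moderately higher at 72 h. All 52 listed genes were measured, 49 had a ratio above 0 (94.2%, against 51.8% of all measured genes), and the median was 0.43 in vehicle and 0.42 with LSD1i; none reached 2-fold in either direction. In the edgeR time fit 16 rose and 0 fell, beside 175 and 102 of the 11289 measured genes. The count was 0 without any one of the 4 THP-1 libraries, 29 without any one KASUMI-1 library, and 4 in the fit of the vehicle pair alone, which takes its spread from KASUMI-1 and was chosen after seeing the data. MKI67, the proliferation antigen Ki-67, stood at 273 and 445 CPM in vehicle at 24 and 72 h and at 252 and 389 CPM with LSD1i, and rose by 0.67 ± 0.14 (adjusted p = 0.0192). CCNB1, the mitotic cyclin B1, stood at 165 and 252 CPM in vehicle and 179.7 and 261 CPM with LSD1i and rose by 0.58 ± 0.12 (adjusted p = 0.0193). The highest vehicle ratios in the list were those of ESPL1 (separase), PLK1 (a mitotic kinase) and CDC25B (a phosphatase that activates CDK1), at 0.99, 0.91 and 0.88. MAD2L1 and BUB3 of the spindle checkpoint and CDK1 itself had ratios of -0.17, -0.03 and -0.02. The part of exon length in this median was not tested either. In bulk RNA a different number of cells of a type and a different amount of RNA per cell cannot be told apart.

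The other cell cycle lists held 0 calls for S phase and 2 for G1 control. Over all 11289 measured genes 175 rose and 102 fell, so the share that rose was higher in the G1 list. That difference in share was not tested. Of 48 S phase and DNA replication genes, 33 had a ratio below 0, the median was -0.11 and 0 passed the time fit in either direction. Of 32 measured genes of G1 control, quiescence and the p53 response, 24 had a ratio above 0, the median was 0.21, and 2 rose, FDXR (0.77 ± 0.17, adjusted p = 0.0247) and KLF6 (0.64 ± 0.15, adjusted p = 0.0375). CDKN1A, which encodes the CDK inhibitor p21, stood at 18.5 and 41.2 CPM in vehicle, 2.22-fold apart (2.05 to 2.41), and at 31.5 and 38.4 CPM with LSD1i, and missed the threshold over both agents (adjusted p = 0.0614). CCNG2, a cyclin of non-dividing cells that was outside the lists, stood at 7.15 and 17.4 CPM in vehicle and 8.36 and 23.8 CPM with LSD1i and rose by 1.40 ± 0.16 (adjusted p = 7.33e-05); it was picked out after its values were seen. MYC was at 118 and 130.0 CPM in vehicle and 103 and 90.1 CPM with LSD1i (adjusted p = 0.974).

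Several genes of mature monocytes were lower at 72 h in vehicle. Of 34 measured genes of monocyte and macrophage maturation, 5 were at least 2-fold lower (against 0.292% of all measured genes) and 0 higher, with a median of -0.09. The 5 were S100A12, SPP1, S100A8, GPNMB and S100A9. S100A8 and S100A9, the subunits of calprotectin, stood at 131 and 259.5 CPM at 24 h and at 51.3 and 124 CPM at 72 h. With LSD1i the direction was the opposite, from 688 to 2619.8 CPM for S100A8 and from 1332 to 5575 CPM for S100A9. S100A12, the related calgranulin C, had 183 reads at 24 h and 29 at 72 h in vehicle, or 3.89 and 0.700 CPM, a ratio of 5.28-fold (3.74 to 8.54) in favour of 24 h, and 56.3 and 249.8 CPM with LSD1i. The time fit averages these opposite changes and called none of the 3 genes. S100A9 and GPNMB are named here after their values were seen. All 3 genes lie within the same stretch of chromosome 1, with S100A9 at 151596954 to 151600126, S100A12 at 151612805 to 151614699 and S100A8 at 151629132 to 151630173 on NCBI build 36.

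The difference between the agents' changes was tested as an interaction in a fit that takes its spread from the 1 residual degree of freedom of KASUMI-1, added after seeing the data. Of 16651 genes, 22 passed (0.132%), and 576 had an unadjusted p under 0.05. The LSD1i change exceeded the vehicle change by 4.63 on the log2 scale for S100A12 (edgeR adjusted p = 9.36e-24), by 3.29 for S100A8 (9.06e-15) and by 3.14 for S100A9 (3.06e-10). In the same fit the vehicle change alone passed for 128 genes (0.769%), 78 higher and 50 lower, among them S100A12 (adjusted p = 2.77e-10), S100A8 (4.52e-05) and S100A9 (0.0269). LYZ, which encodes lysozyme, stood at 896 and 536 CPM in vehicle, a log2 ratio of -0.74, and 4906 and 11138 CPM with LSD1i. Its interaction was 1.94 (adjusted p = 0.0396), while the vehicle change alone did not pass (adjusted p = 0.545). IFI30, a lysosomal thiol reductase of antigen processing, stood at 26.4 and 4.998 CPM in vehicle and 100.4 and 64.1 CPM with LSD1i; it fell by 1.44 ± 0.26 over both agents (adjusted p = 0.00613), with an interaction of 1.77 (9.51e-05). CYBB, the catalytic subunit of the phagocyte oxidase, stood at 17.7 and 5.22 CPM in vehicle and 108 and 110.2 CPM with LSD1i, so it was lower at 72 h in vehicle and not with LSD1i (interaction 1.81, adjusted p = 2.71e-05).

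**Figure D3:**
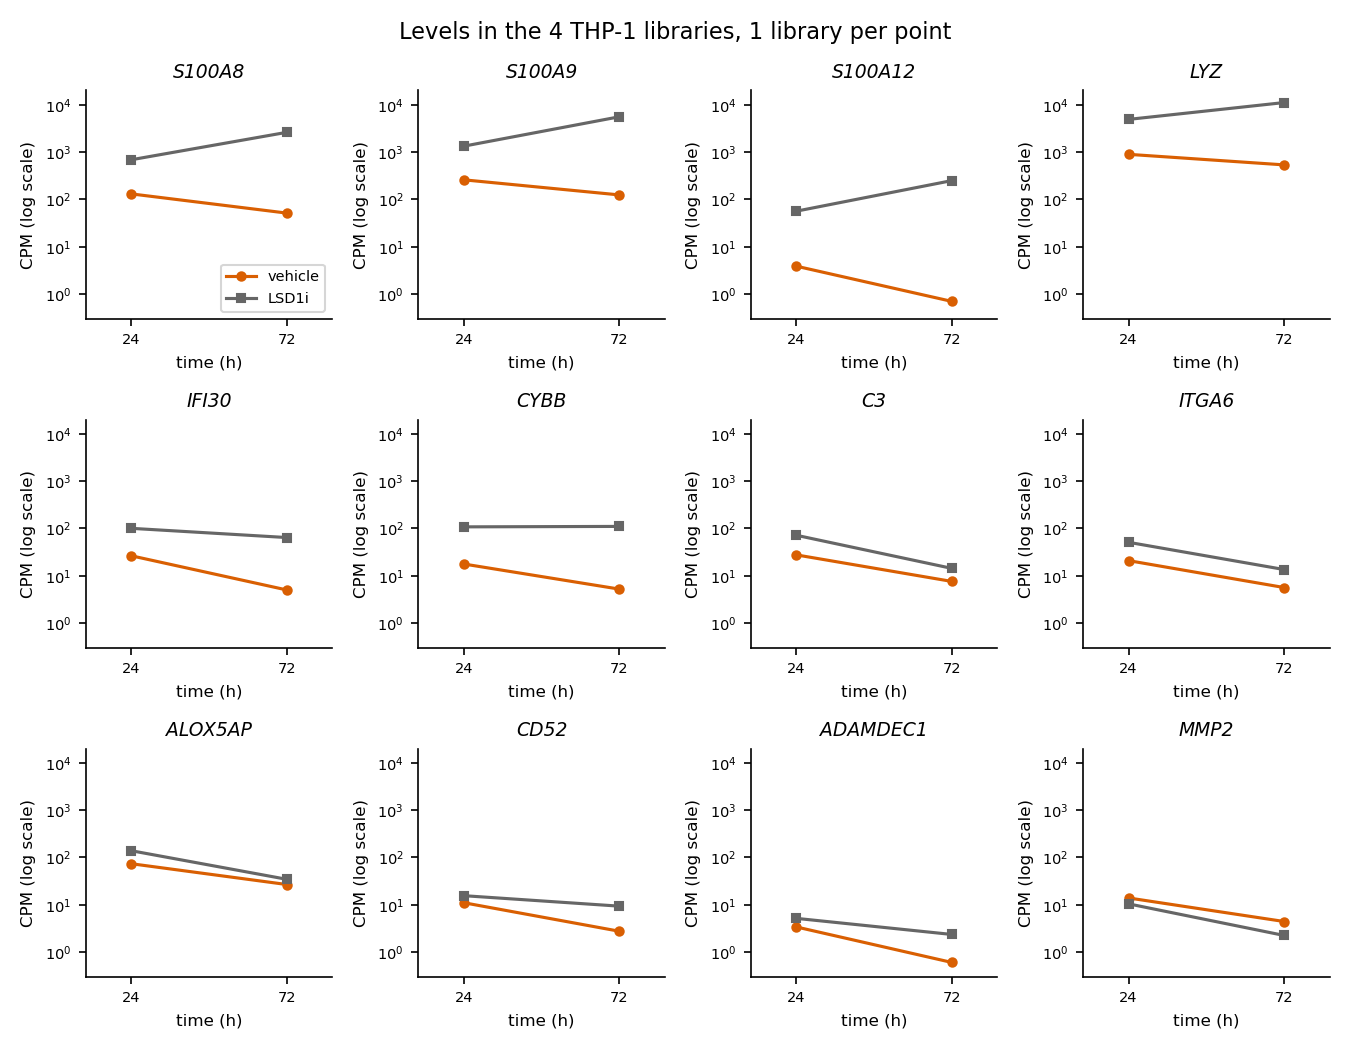
Levels of 12 genes in the 4 THP-1 libraries, in CPM on a shared log scale, at 24 and 72 h, with vehicle in orange and LSD1i in grey. Each point is 1 library and the lines join libraries of the same agent. S100A8, S100A9, S100A12 and LYZ diverge between the agents, whereas C3, ITGA6, ALOX5AP and MMP2 are lower at 72 h with both.

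Some other monocyte and granule genes moved little, and others fell. CSF1R, the receptor of macrophage colony-stimulating factor, stood at 31.0 and 39.7 CPM in vehicle, ITGAM (CD11b) at 9.38 and 9.34 CPM, and CD14 and CD86 below 1 CPM at both times. The highest ratios among 14 measured granule and progenitor-stage genes were those of CTSG, AZU1 and PRTN3, which encode granule proteins: AZU1 stood at 1123 and 1499 CPM in vehicle, CTSG at 1007 and 1347 CPM and PRTN3 at 870.4 and 1121 CPM. None of these 3 passed the time fit; in that list 0 rose and 1 fell, MS4A3, a membrane protein of myeloid precursors, at 406 and 308 CPM in vehicle and 343 and 169 CPM with LSD1i (-0.71 ± 0.17, adjusted p = 0.0342). CD1D, which presents lipids to natural killer T cells, stood at 47.2 and 28.4 CPM in vehicle and 110.1 and 55.4 CPM with LSD1i and fell by 0.86 ± 0.13 (adjusted p = 0.00185). LILRB4, an inhibitory receptor of myeloid cells, was the member of the maturation list that rose (0.49 ± 0.12, adjusted p = 0.0442), against 5 of 34 that fell: CD1D, APOC1, GPNMB, SPP1 and PLAUR. Over all 11289 measured genes 175 rose and 102 fell. SPP1 (osteopontin) fell by 1.16 on the log2 scale, GPNMB by 1.07 and PLAUR, the urokinase receptor, by 0.61; PLAUR was picked out after its values were seen. KIT, the stem cell factor receptor, stood at 8.17 and 14.9 CPM in vehicle but 3.24 and 1.82 CPM with LSD1i, an interaction of -1.69 (adjusted p = 0.0344). KDM1A, the gene of LSD1, was at 107 and 112 CPM in vehicle, and 0 of the 24 measured genes of LSD1 and its corepressor partners passed the time fit.

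Several of the lowest ratios in vehicle belonged to genes that were also lower at 72 h with LSD1i. Of these, ITGA6 and MMP2 are on the cell adhesion and matrix list. In this list 20 of 31 measured genes had a ratio above 0 and the median was 0.07. In vehicle 1 was at least 2-fold higher and 2 lower, against 0.523% and 0.292% of all measured genes. In the time fit 0 rose and 3 fell, beside 175 and 102 of all 11289 measured genes. ITGA6, the integrin chain alpha 6, stood at 20.9 and 5.63 CPM in vehicle and 50.9 and 13.5 CPM with LSD1i, a vehicle ratio of 3.69-fold (3.21 to 4.30) in favour of 24 h, and fell by 1.90 ± 0.15 (adjusted p = 1.05e-06). C3, the central complement component, stood at 27.6 and 7.58 CPM in vehicle and 71.8 and 14.3 CPM with LSD1i and fell by 2.10 ± 0.19 (adjusted p = 8.88e-06). ALOX5AP, which serves leukotriene synthesis, stood at 73.6 and 26.7 CPM in vehicle and 139 and 34.4 CPM with LSD1i and fell by 1.73 ± 0.18 (adjusted p = 3.13e-05). In each of these genes the level was higher with LSD1i at 24 h than with vehicle, and both agents ended lower. MMP2, a gelatinase, went from 13.9 to 4.42 CPM in vehicle and from 10.4 to 2.24 CPM with LSD1i and fell by 1.91 ± 0.21 (adjusted p = 4.94e-05). NPTX1, a pentraxin first known from neurons, went from 16.3 to 4.97 CPM and from 28.1 to 3.04 CPM and fell by 2.43 ± 0.25 (adjusted p = 3.13e-05). HP (haptoglobin), CD52 (a surface glycoprotein of leukocytes), SPOCK1 (a proteoglycan) and LSP1 (an actin-binding protein of leukocytes) also fell, with vehicle ratios between -1.99 and -1.67. ADAMDEC1, a metalloprotease of macrophages, stood at 3.40 and 0.604 CPM in vehicle and fell by 1.69 ± 0.31 (adjusted p = 0.0075). The row given as FTHL16, of the ferritin heavy chain family, stood at 149 and 56.0 CPM in vehicle. This older name was matched by symbol to FTH1P16. The row covers 61488335 to 61491708 on the minus strand of chromosome 11, with 1227 exon bases. These are fewer than its span, so its gene model is split into exons. The match to FTH1P16 rests on the symbol and chromosome alone and is uncertain. Which gene of the family this row counts was not tested, and reads of the family's close copies cannot be told apart from it.

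Some chemokines of monocytes were among the genes that fell. CXCL8, the neutrophil attractant interleukin 8, stood at 6.13 and 2.41 CPM in vehicle and 8.65 and 2.75 CPM with LSD1i and fell by 1.49 ± 0.21 (adjusted p = 0.000791). CCL5, a T cell attractant, stood at 65.6 and 43.9 CPM and at 55.9 and 25.03 CPM and fell by 0.86 ± 0.17 (adjusted p = 0.0123). CCL2, the monocyte attractant, had 1.96 and 0.338 CPM in vehicle, under the mean level asked for here, and 22.4 and 6.21 CPM with LSD1i, and fell by 2.03 ± 0.24 (adjusted p = 0.000149). Of the 21 measured genes of the cytokine and NF-kB list these falls by CXCL8 and CCL5 were the 2 that passed, and 0 rose. Among all 11289 measured genes 175 rose and 102 fell. The cytokine gene IL1B, like CCL2 under the mean level asked for, fell by 0.89. The list's median was 0.05, so the lower values were those of single genes. TNFAIP3 and NFKB2, target genes of NF-kB, had vehicle ratios of 0.53 and 0.42 and did not pass. The list's highest vehicle ratio was that of another chemokine, CCL22, at 0.66 (4.08 and 6.47 CPM). CCL22 stood at 5.09 and 4.60 CPM with LSD1i and did not pass either (adjusted p = 0.635).

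Outside the lists the highest ratios belonged to genes of unrelated functions. TBC1D30, a GTPase-activating protein for Rab proteins, stood at 5.47 and 31.5 CPM in vehicle and 6.23 and 18.3 CPM with LSD1i, a vehicle ratio of 5.72-fold (5.04 to 6.61), and rose by 2.05 ± 0.20 (adjusted p = 1.33e-05). CSPG4, a membrane proteoglycan, stood at 2.08 and 9.97 CPM and at 1.70 and 8.40 CPM and rose by 2.28 ± 0.23 (adjusted p = 2.76e-05). SLC6A8, the creatine carrier, stood at 7.81 and 27.0 CPM in vehicle and 5.12 and 9.62 CPM with LSD1i and rose by 1.38 ± 0.20 (adjusted p = 0.0011). ABCC6, a transporter of the multidrug resistance family, rose by 1.26 ± 0.20 (adjusted p = 0.00173). CSPG4, SLC6A8 and ABCC6 have close copies elsewhere in the genome, so their counts are uncertain. C1S, a complement protease, stood at 2.26 and 7.73 CPM in vehicle and at 0.860 and 1.16 CPM with LSD1i and rose over both agents by 1.28 ± 0.31 (adjusted p = 0.0376). LINC03040, a non-coding gene listed as C6orf223, had the second highest ratio, from 1.40 to 8.62 CPM in vehicle and from 3.40 to 6.47 CPM with LSD1i.

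Growth and metabolic lists lay slightly to one side of 0. Among all 11289 measured genes 5444 had a vehicle ratio below 0, 175 rose and 102 fell. Differences of the lists from these shares were not tested. Of 52 measured genes of ribosome biogenesis and MYC targets, 45 had a ratio below 0; the median was -0.21 in vehicle and -0.36 with LSD1i, 0 were 2-fold apart in vehicle, 2 fell (LYAR and NIP7, which act in ribosome assembly; LYAR was picked out after its values were seen) and 2 rose. Those that rose were MXD3 (0.92 ± 0.18, adjusted p = 0.0119) and MXD4 (0.59 ± 0.13, adjusted p = 0.0247), which encode partners of MAX that oppose MYC. POLR3G, a subunit of RNA polymerase III, had the lowest vehicle ratio of this list, -0.83, and did not pass (adjusted p = 0.061). The cytosolic ribosomal protein genes had 45 of 58 ratios below 0 and a median of -0.09 in vehicle but a median of 0.20 with LSD1i, and 0 passed; 49 of them lie in the class of shortest exons, whose median over all genes was -0.07 in vehicle and -0.02 with LSD1i. Of 52 nuclear-encoded genes of the respiratory chain 39 had a ratio below 0, the median was -0.13, and 1 fell, CYCS, which encodes cytochrome c (-0.54 ± 0.13, adjusted p = 0.0304); 39 of these genes lie in the class of shortest exons. The part of exon length in these medians was not tested. Among 27 genes of oxidative stress and iron handling the median was -0.15 and 2 fell, NQO1 (a quinone reductase; -0.54 ± 0.12, adjusted p = 0.0254) and GCLC (of glutathione synthesis; -0.61 ± 0.15, adjusted p = 0.0387). Heat shock and unfolded protein genes (36 measured), lysosome and autophagy genes (52) and glucose-sensing genes (10, with TXNIP at 534 and 496 CPM) had medians of 0.09, 0.04 and -0.04, and 0 passed in either direction.

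**Figure D4:**
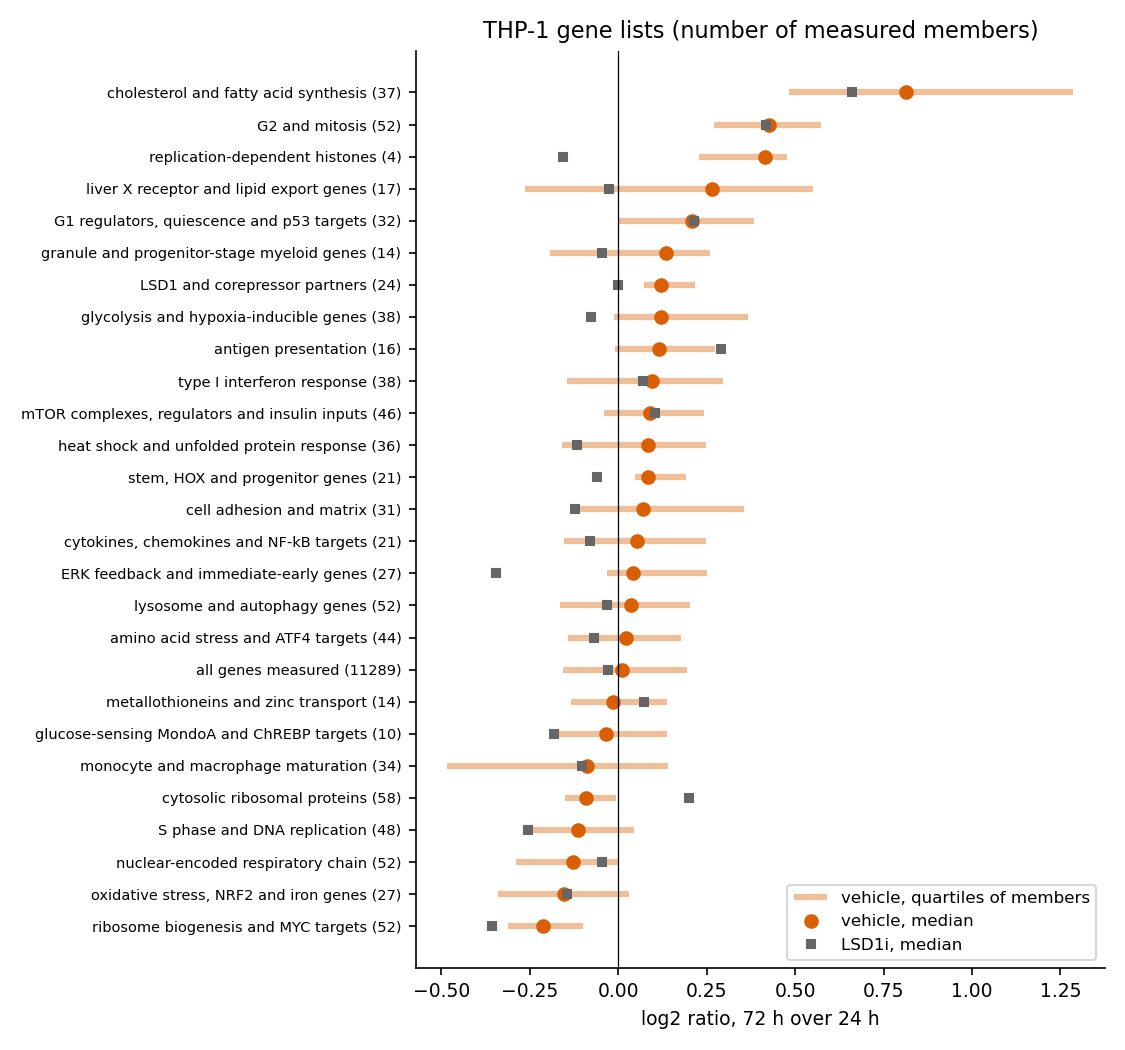
Each row is a gene list with its number of measured members. Orange points and bars give the median and quartiles of the log2 ratio of 72 h to 24 h in vehicle, grey squares the median with LSD1i. The medians run from 0.81 for cholesterol and fatty acid synthesis to -0.21 for ribosome biogenesis, with all genes measured at 0.01.

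Counts of calls in the stress, hypoxia and interferon lists were small. Over all 11289 measured genes 175 rose and 102 fell. The share called was higher than this in the amino acid stress, interferon and metallothionein lists, and close to it in glycolysis and hypoxia. These differences in share were not tested. Of 38 measured genes of glycolysis and hypoxia, the median was 0.12 and 1 rose, BNIP3L, a mitophagy receptor picked out after its values were seen (0.86 ± 0.15, adjusted p = 0.00544). PFKFB4, a regulator of glycolytic flux, stood at 7.38 and 15.7 CPM in vehicle and 10.4 and 14.3 CPM with LSD1i (adjusted p = 0.0848), and DDIT4, which restrains mTORC1, at 8.19 and 15.9 CPM and at 20.6 and 32.2 CPM (adjusted p = 0.0686). VEGFA and SLC2A1, classical hypoxia targets, had vehicle ratios of -0.25 and 0.42 and did not pass. Of 44 measured genes of amino acid stress the median was 0.02 and 2 rose, PHGDH (of serine synthesis) and ALDH1L2 (of mitochondrial folate metabolism), by 0.67 and 0.87. ASNS, asparagine synthetase, had a vehicle ratio of -0.63 and did not pass (adjusted p = 0.126). Of 38 interferon response genes the median was 0.10; STAT2 and DHX58, a signalling factor and a sensor of viral RNA, rose by 0.63 and 0.89, and IFI6, a mitochondrial protein, fell by 0.78. MT2A, a metallothionein, rose by 1.08 ± 0.25 (adjusted p = 0.0297), while the list of 14 measured metallothionein and zinc genes had a median of -0.01. HMOX1 and IL1B, both under 2 CPM on average in vehicle, fell by 1.31 and 0.89.

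Set beside the LSD1i libraries, the vehicle comparison held fewer genes at least 2-fold apart. From 24 to 72 h with LSD1i, 182 of 11309 genes were apart (1.61%), 96 higher (0.849%) and 86 lower (0.76%). Of the genes higher in vehicle 26 were also higher with LSD1i, which is 44.1% of the 59 and 27.1% of the 96. Of the genes lower in vehicle 13 were also lower with LSD1i, 39.4% of the 33 and 15.1% of the 86. None was higher in vehicle and lower with LSD1i, and 4 were lower in vehicle and higher with LSD1i. In all, 56 of the 59 had an LSD1i ratio above 0 and 26 of the 33 a ratio below 0. Among all 11289 genes measured in vehicle, 5124 had an LSD1i ratio above 0. Across 11062 genes the ratios of the agents had a Pearson r of 0.472, given as a description: the pairs share no library, and both share the line, the times and any step that the harvests of 1 time had in common. The contrasts of LSD1i with vehicle, which use the same vehicle libraries, had 363 genes apart at 24 h (3.22%) and 522 at 72 h (4.58%).

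**Figure D5:**
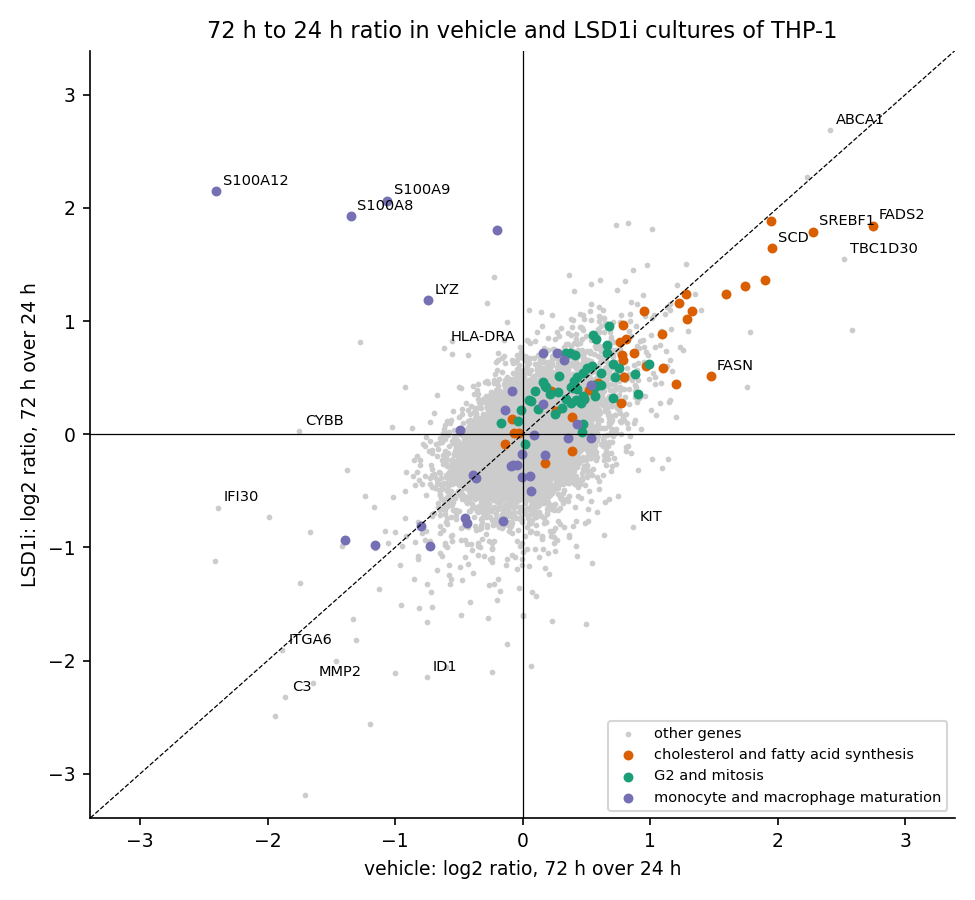
Each point is a gene with a mean of at least 2 CPM in vehicle. The axes are the log2 ratios of 72 h to 24 h in vehicle (horizontal) and with LSD1i (vertical), and the dashed line marks equal ratios. Most lipid synthesis genes lie in the upper right, ITGA6, C3 and MMP2 in the lower left, and S100A8, S100A9, S100A12 and LYZ in the upper left.

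In KASUMI-1 vehicle cultures the interval was 6 to 72 h, so its values stand beside those of THP-1 without a comparison. There 157 of 10891 genes were at least 2-fold apart (1.44%), 72 higher (0.661%) and 85 lower (0.78%). The median log2 ratio of the cholesterol and fatty acid synthesis list in KASUMI-1, over the genes measured in THP-1, was 0.47, and that of G2 and mitosis was -0.24. FADS2 had a log2 ratio of 1.13 in KASUMI-1 (95% counting interval 1.08 to 1.19) and C3 one of -3.57 (-5.57 to -2.66).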

How the data were processed

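The authors deposited 1 table in which each gene has a whole-number read count in each of the 8 libraries; these counts are not normalized. Per the file headers, counts were made with featureCounts 1.5.2 on gene models of Ensembl release 54 and NCBI build 36 (hg18). The command sets no option for strand, for reads that map to several places or for reads on several genes, so overlapping and antisense genes and close copies cannot be separated. TopHat2 2.0.10, FastQC 0.10.0, Subread and edgeR are listed in the submitters' processing notes, without their settings.

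Each of the 8 groups, taken from the labels, held 1 library, of 23722972 to 45970766 counted reads. Names in the table were matched to RefSeq symbols: of 33045, 16840 were current and 3289 older names on the same chromosome. CPM values were scaled with TMM over all libraries. The log2 ratio used a prior count of 2 and an exact conditional binomial (Clopper-Pearson) interval at 95%. A fold change of a gene with few reads is drawn toward 0 by the prior. The time fit used edgeR 4.0.16 in R 4.3.3 (glmQLFit and glmQLFTest, filterByExpr at 10 reads, Benjamini-Hochberg adjustment) with 2 residual degrees of freedom; SE is the fitted value over the square root of F. The labels give no replicate numbers; the agent term pairs the libraries of 1 agent across times and was left out in 1 alternative. Alternatives were RLE scaling, library totals, other priors and level minimums, DESeq2 1.42.0, THP-1 alone, no agent term and leaving out each library. The scripts were tested on simulated data.

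Named genes were 24 set ones, the 15 highest and 15 lowest ratios, up to 3 at each end of each of 26 lists, and 5 at each end of the time fit. The other lipid synthesis and mitosis genes are named as members of those lists. Others are marked in the text as picked after their values were seen, as are the promoter windows printed. Some genes are counted in the lists but not reported here by name. The members and lists were chosen with earlier results of these data known.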

Additional observations from a re-analysis of the deposited data

Results flagged for a closer look

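The change from 24 to 72 h differed between LSD1i and vehicle cultures of THP-1 for 8 of the named genes by the interaction test (edgeR, Benjamini-Hochberg, spread from KASUMI-1 alone). Values are the LSD1i change minus the vehicle change on the log2 scale. It was 4.63 for S100A12 (adjusted p = 9.36e-24), 3.29 for S100A8 (9.06e-15), 1.94 for LYZ (0.0396), 1.81 for CYBB (2.71e-05), 1.77 for IFI30 (9.51e-05) and 1.40 for HLA-DRA (0.0373). It was -1.69 for KIT (0.0344) and -1.38 for ID1 (0.034). S100A8, S100A12, LYZ and HLA-DRA were lower at 72 h in the vehicle pair and higher in the LSD1i pair. HLA-DRA, a class II antigen-presenting chain, stood at 5.34 and 3.48 CPM in vehicle and 8.70 and 14.8 CPM with LSD1i. ID1, an inhibitor of helix-loop-helix factors, stood at 19.9 and 11.8 CPM in vehicle and 63.5 and 14.3 CPM with LSD1i, so both pairs were lower at 72 h. Each value rests on 1 library per agent and time.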

How the results depend on the processing

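In vehicle, the 92 genes apart (59 higher, 33 lower) became 43 (30 and 13) at a mean of at least 10 CPM, 448 (270 and 178) with no minimum and 567 (381 and 186) at 1.5-fold; with LSD1i the 182 became 78 (50 and 28), 632 (360 and 272) and 782 (413 and 369). RLE scaling, library totals and a prior of 0.5 kept each of these counts within 1.5 times. RLE moved the median of the cytosolic ribosomal protein genes to -0.12 and the adhesion genes at least 2-fold higher from 1 to 0. RLE moved the median of all genes from 0.01 to -0.01. Of 260 named ratios 249 stayed within their interval with RLE and 260 with library totals and with the prior of 0.5.

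The time fit, 313 genes (193 rose, 120 fell), gave 638 (371 and 267) without a filter, 1031 (579 and 452) on THP-1 alone and 128 (78 and 50) on the vehicle pair. Leaving out a library gave 37 to 1066 genes (20 to 615 rose, 17 to 451 fell), 7 to 27 lipid synthesis genes and 0 to 29 mitosis genes. With no agent term (no replicate block), 0 genes rose and 0 fell, 0 of the lipid and 0 of the mitosis genes among them, and 747 had an unadjusted p under 0.05; the agent effect is then part of the spread. DESeq2 called 130 and 107. G2 and mitosis gave 29 rises on THP-1 alone and 4 on the vehicle pair. Among 90 named calls, 87 remained with RLE and 75 of 89 with DESeq2. S100A12 and S100A8, at 2.15 and 1.93 without the vehicle library of 24 h, reversed to -2.48 and -1.36 without the LSD1i library of 24 h (-2.48 and -1.36 without that of 72 h), and to -2.47 and -1.35 on the vehicle pair, since these leave the vehicle change alone. The lowest counts bear on genes such as S100A12 and CCL2, with 29 and 14 reads at 72 h.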
